A study of Mus musculus with 6 samples.

Results

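The SOCS family comprises Cish and Socs1 to Socs7, 8 genes of the 18193 that had a probe set with a single gene symbol. They were chosen by symbol alone, and 24 of the 45037 non-control probe sets carried one of these symbols. The probe set with the highest mean over the 6 arrays stood for each gene, and the others served as a check. Expression had been measured in naive CD8+ T cells of the spleen on Affymetrix mouse expression arrays, which read the 3' ends of transcripts. The cells came from Nrdp1-/- or wild-type (Nrdp1+/+) mice, both labelled C57/BL6. Nrdp1, the product of Rnf41, attaches ubiquitin to target proteins, and the labels do not say in which cells it was deleted or how many mice gave each RNA. In each genotype 1 array was of untreated cells, 1 of cells stimulated for 4 h and 1 of cells stimulated for 8 h, using immobilized antibody to CD3 (5 µg/ml) plus antibody to CD28 in solution (1 µg/ml). Nothing in the labels says that the arrays came from separate animals. With 1 array per genotype and time there were no replicate arrays. Standard errors and p-values therefore rest on departures from an additive fit of time and genotype, moderated by the spread over all genes. Such departures mix spread between arrays, which may be technical, with any true difference in response between the genotypes.

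SOCS proteins are feedback inhibitors of cytokine signalling. A cytokine receptor activates JAK kinases, these phosphorylate STAT transcription factors, and the STAT factors switch on SOCS genes, whose products bind the receptor or the kinase through an SH2 domain. Their SOCS box recruits elongins and a cullin, which form a ubiquitin ligase that marks the bound protein for degradation. Cish is a classical STAT5 target downstream of IL-2 and in mouse CD8+ T cells also restrains T cell receptor signalling. Socs1 and Socs3 block the JAK kinases directly through a short inhibitory region. Socs2 is best known for limiting growth hormone signalling, while Socs4 to Socs7 have been tied mainly to receptor tyrosine kinases.

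STAT dimers bind the letters TTCNNNGAA, which read the same on both strands, and interferon regulatory factors bind GAAA repeated after 2 bases of any kind, called the IRF element here. Both were searched on either strand, together with the wider STAT6 spacing (TTC and GAA with 4 bases of any kind between them), in windows of 300 bases around gene starts (250 before, 50 after) taken from RefSeq on GRCm38.p6. Of the family, 4 members had a window in that table: Cish, Socs1, Socs3 and Socs4. The windows are shown because 3 of these 4 genes increased with stimulation. The stretches below run 5′ to 3′ on the strand of the gene, with the matches in capitals. For Cish and Socs3 30 bases around the TTCNNNGAA matches are given, and for Socs1 the 250 bases before its start.
Cish, chr9:107296654-107296683, plus strand: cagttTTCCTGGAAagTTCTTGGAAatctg
Socs3, chr11:117969501-117969530, minus strand: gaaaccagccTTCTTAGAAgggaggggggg
Socs1, chr16:10785537-10785786, minus strand: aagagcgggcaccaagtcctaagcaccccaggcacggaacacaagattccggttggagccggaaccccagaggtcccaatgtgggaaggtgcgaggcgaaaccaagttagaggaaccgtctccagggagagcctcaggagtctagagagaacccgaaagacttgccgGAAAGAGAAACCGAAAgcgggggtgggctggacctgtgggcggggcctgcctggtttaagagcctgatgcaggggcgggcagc
Cish held 2 TTCNNNGAA matches just inside its annotated start, at positions 1 to 9 and 12 to 20, counted from 1 at the first transcribed base. Socs3 held 1, from position -154 to -146, inside the annotated span of the gene. Socs1 held 2 overlapping IRF elements, from -83 to -74 and from -77 to -68. Socs4 held none of the 3 motifs in these letters. Among all 32851 windows of this length 8.3% held TTCNNNGAA and 0.457% held it at least 2 times, 3.44% held the IRF element and 0.225% held that at least 2 times, and 6.95% held the STAT6 spacing, which no member window held. A match describes the letters and is no evidence of binding in these cells.

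Cells of the preparations and the targeted gene were examined once for all members. Median signal was 61.8 to 68.8 per array. The brightest of 4 Rnf41 probe sets had 437 to 528 on Nrdp1-/- arrays and 505 to 728 on wild-type arrays, and did not pass the threshold between genotypes (limma, log2 difference -0.36 ± 0.12, adjusted p = 0.128). A dimmer one had 54.5 to 83.7 on Nrdp1-/- and 161 to 181 on wild-type arrays. Their position relative to the deletion is unknown, so they do not check the labels. Summed signal of 9 CD8 T cell markers was 72469 to 84535 on Nrdp1-/- and 76724 to 84475 on wild-type arrays. Although the extraction text names colon, 5 of 8 colon epithelial markers (Vil1, Krt20, Cdh17, Muc2 and Cdx1) lay below the array median throughout. Epcam and Lgals4 lay above it on all 6 arrays and Car1 on 3. Between genotypes Car1, below the array median on every wild-type array, was called higher (at least 2.71-fold) and Epcam lower (-1.06 on the log2 scale). Markers of other cells moved with genotype. Signals of 13 myeloid genes summed to 3067 to 13464 on Nrdp1-/- arrays, with the highest sum in untreated cells and the lowest at 8 h, against 1898 to 2080 on wild-type arrays. Of 12 tested 6 were higher. Itgam lay below the array median on all 6 arrays, and Adgre1 was lower in Nrdp1-/- cells untreated (-0.50) and at 4 h (-0.48). Memory-like CD8 markers were higher in 7 of 10 (sums 51489 to 57146 against 43857 to 51057 in wild type). Klrd1 went the other way, by -0.14 untreated, -0.46 at 4 h and -0.32 at 8 h, and was not called. Of 10 tested B cell markers 8 were lower and Ighm was higher. Over all tested genes 2.47% were called higher and 2.57% lower between genotypes. Fewer cells of a type and less RNA per cell cannot be told apart in bulk RNA.

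All 8 members passed the filter on dim signal, which asked for a probe set at or above the array's median on at least 2 of 6 arrays. Stimulation split the family. Cish, Socs1 and Socs3 had risen at 4 h, and Cish, Socs1, Socs2 and Socs3 at 8 h, while Socs4, Socs5, Socs6 and Socs7 passed the threshold at neither time. The additive limma model of time and genotype over the 6 arrays called 3 of 8 members higher at 4 h, where 8.01% of the 10838 tested genes were, and 4 of 8 at 8 h, where 9.88% were. The 2 comparisons share the untreated arrays. None was called lower (0 of 8 at both times), with 0 at 4 h and 1 (Socs4) at 8 h at an unadjusted p under 0.05. The background of lower calls was 5.51% at 4 h and 9.26% at 8 h. The median log2 change of the members was 0.18 at 4 h and 0.25 at 8 h, beside medians over all tested genes of -0.05 and -0.07. Without limma's intensity trend no member was called at either time, and 83 genes were called higher in all at 4 h and 103 at 8 h.

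Cish, the STAT5-driven member, changed most. Its MAS5 signal, a linear scale on which each array is brought to the same trimmed mean, was 227, 809 and 1604 in untreated, 4 h and 8 h Nrdp1-/- cells, and 194, 579 and 729 in wild-type cells. Every stimulated array lay above both untreated arrays, and the groups did not overlap. The share of all tested genes that separate in this way is not given here, so for each member the order only describes the arrays. Within Nrdp1-/- cells the signal was 3.57 times the untreated one at 4 h and 7.08 times at 8 h, and within wild-type cells 2.98 and 3.75 times, from single arrays without a replicate check. On the log2 scale, with 4.45 (the 10th percentile of all signals) added before the logarithm, Cish had risen by 1.68 ± 0.20 at 4 h (SE, 6 arrays, limma, adjusted p = 0.000259) and by 2.34 ± 0.20 at 8 h (adjusted p = 1.93e-05). Only 1 probe set named Cish. Its adjusted p without the intensity trend was 0.0835 at 4 h and 0.0528 at 8 h.

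Socs1, which shuts off JAK kinases after interferon-gamma and gamma-chain cytokines, had 319, 701 and 633 in untreated, 4 h and 8 h Nrdp1-/- cells and 366, 436 and 591 in wild-type cells. The stimulated arrays were again all above both untreated ones, and the 4 h value of Nrdp1-/- cells was the highest of the 6. The change was 0.69 ± 0.20 at 4 h (limma, adjusted p = 0.0413) and 0.83 ± 0.20 at 8 h (adjusted p = 0.0141). At 4 h the call was lost without the untreated Nrdp1-/- array (0.39) or the 4 h Nrdp1-/- array (0.32), and at 8 h without the untreated Nrdp1-/- array (0.54). It was also lost at 4 h without the filter (adjusted p = 0.0677). Socs1 too was read by 1 probe set.

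Socs3, the inhibitor of gp130 cytokines such as IL-6, had 3025, 4142 and 5267 in untreated, 4 h and 8 h Nrdp1-/- cells. In wild-type cells it had 2276, 3529 and 3348. All 4 stimulated arrays exceeded both untreated arrays, but by less than for Cish. The log2 change was 0.54 ± 0.12 at 4 h (limma, adjusted p = 0.0111) and 0.68 ± 0.12 at 8 h (adjusted p = 0.00261). The brightest Socs3 probe set is of the "_x_at" kind, whose probes can also match other transcripts. The dimmest of the 3, without that mark, had 841, 1147 and 1312 in Nrdp1-/- cells and 713, 840 and 941 in wild-type cells, and gave 0.34 ± 0.13 at 4 h (adjusted p = 0.1005) and 0.52 ± 0.13 at 8 h (adjusted p = 0.0156). The 4 h call therefore held for both "_x_at" probe sets only, and it was lost without the 4 h wild-type array (0.39).

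Socs2, also known as a STAT5 target, was near the array median. Its signals were 50.4, 111 and 227 in untreated, 4 h and 8 h Nrdp1-/- cells and 84.1, 72.3 and 158 in wild-type cells. The untreated Nrdp1-/- value lay below its array's median of 65.1. Both 8 h arrays were above the other 4, and at 4 h the ranges of stimulated and untreated arrays overlapped. The change was 0.43 ± 0.40 at 4 h (limma, adjusted p = 0.538) and 1.47 ± 0.40 at 8 h (adjusted p = 0.0261). The next brightest probe set gave a change of 1.38 at 8 h with an adjusted p of 0.0646. The other 4 Socs2 probe sets did not pass the filter, and averaging all 6 gave 0.62 and no call. The call at 8 h was also lost without the untreated Nrdp1-/- array (0.85) or the 8 h Nrdp1-/- array (1.19).

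**Figure D1:**
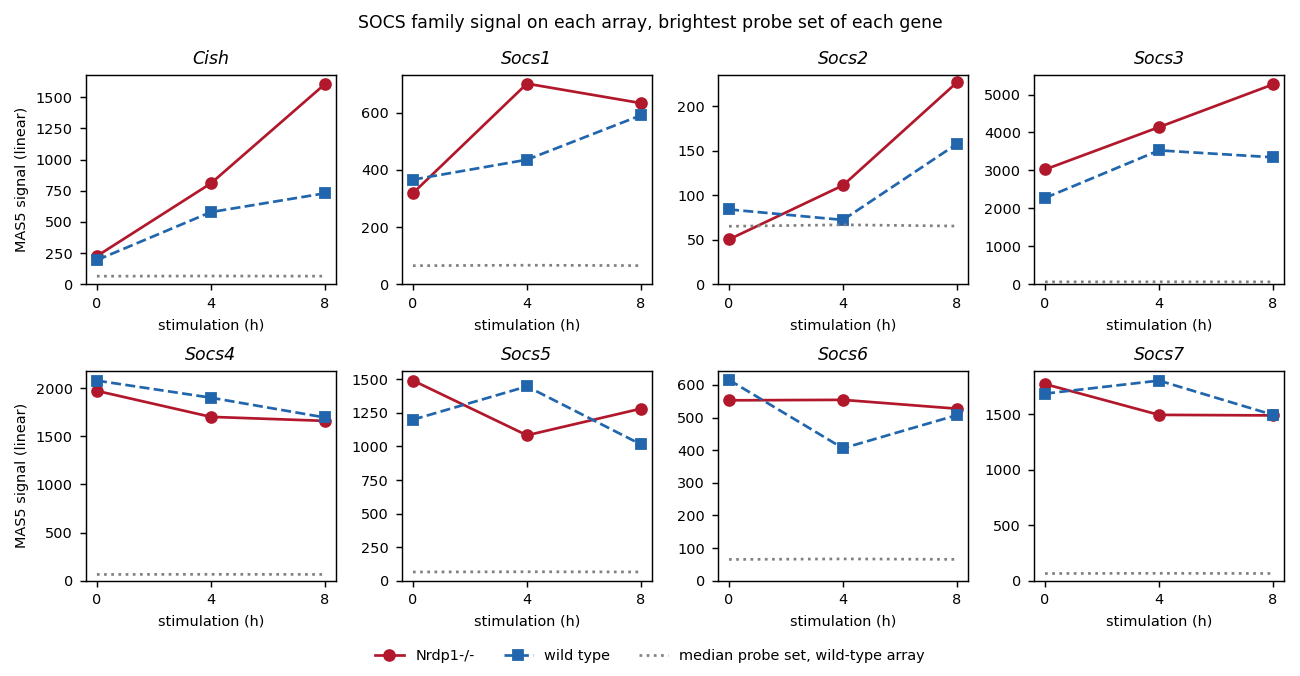
MAS5 signal (linear, vertical axes from 0) of each SOCS family gene against hours of stimulation, 1 point per array, with Nrdp1-/- arrays as circles, wild-type arrays as squares and the median probe set of the wild-type arrays as a dotted line. Cish reached 1604 at 8 h in Nrdp1-/- cells and 729 in wild-type cells, while Socs4 stayed between 1660 and 2077 on all arrays.

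The members linked to receptor tyrosine kinases lay above the array median on all arrays and were not called. Socs4 had 1971, 1701 and 1660 in untreated, 4 h and 8 h Nrdp1-/- cells and 2077, 1900 and 1695 in wild-type cells, so all stimulated values lay below both untreated ones. Its log2 change at 8 h was -0.27 ± 0.11 and was not called (limma, adjusted p = 0.106). The 2 dimmer Socs4 probe sets that passed the filter had changes of 0.13 and 0.54 at 8 h, opposite in sign. Socs5 ranged from 1083 to 1491 on Nrdp1-/- arrays and from 1016 to 1447 on wild-type arrays, with no common order of the times: 4 h was the lowest in Nrdp1-/- cells and the highest in wild-type cells. The dimmer Socs5 probe set, which also passed the filter, showed the reverse. It had 328, 332 and 323 in untreated, 4 h and 8 h Nrdp1-/- cells and 393, 255 and 304 in wild-type cells. Socs6 ranged from 527 to 554 on Nrdp1-/- arrays and from 406 to 615 on wild-type arrays. Socs7 ranged from 1489 to 1772 on Nrdp1-/- and from 1494 to 1803 on wild-type arrays. At 4 h the brightest Socs6 probe set changed by -0.30 and a dimmer one that passed the filter by 0.28. For Socs7 these changes were -0.07 and 0.03. The 95% intervals of the 8 h change ran from -0.61 to 0.15 for Socs5, from -0.54 to 0.20 for Socs6 and from -0.48 to 0.05 for Socs7, so a doubling lay outside each interval.

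Between 4 h and 8 h no member passed the threshold (0 of 8 in limma, 2 at an unadjusted p under 0.05), where 0.0185% of all genes were called higher and 0.0277% lower. The largest differences were those of Socs2 at 1.04 ± 0.40 (adjusted p = 0.509) and Cish at 0.66 ± 0.20 (adjusted p = 0.370). The Cish value passed with the 4 stimulated arrays alone (limma, adjusted p = 0.00455). It also passed without the untreated wild-type, 8 h wild-type or untreated Nrdp1-/- array, each of which leaves a single array in a condition. These fits have few residual degrees of freedom and lean on the spread over all genes. Without the 8 h wild-type array the 8 h level came from Nrdp1-/- cells alone, where the rise was larger. The difference from 4 h to 8 h was 0.98 in Nrdp1-/- cells and 0.33 in wild-type cells.

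**Figure D2:**
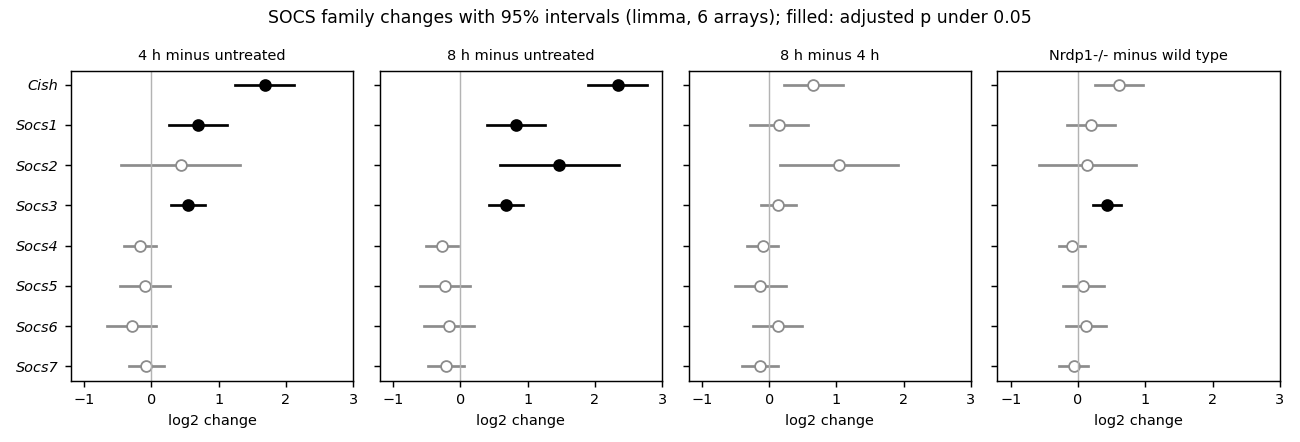
Log2 changes (horizontal axes) of the 8 SOCS family genes from the additive limma model over 6 arrays, 1 panel per comparison, with 95% intervals as bars and filled points where the adjusted p was under 0.05. The intervals of Cish, Socs1, Socs2 and Socs3 at 8 h lie above 0, and those of Socs5, Socs6 and Socs7 include it.

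Over the 3 conditions Socs3 was the member that differed between genotypes. It was higher in Nrdp1-/- than in wild-type cells by 0.43 ± 0.10 (limma, adjusted p = 0.0244), and the single-array differences were 0.41 untreated, 0.23 after 4 h and 0.65 after 8 h. This made 1 of 8 members called higher, where 2.47% of all genes were, and 0 of 8 called lower (0 at an unadjusted p under 0.05), where 2.57% were. The members' median difference was 0.13, beside -0.01 over all tested genes. Both other Socs3 probe sets were higher at all 3 times too, with means of 0.23 (adjusted p = 0.217) and 0.39 (adjusted p = 0.0578) that did not pass the threshold. The call was lost without the 8 h array of either genotype (0.32 in both cases). Either omission takes the 8 h pair out of the genotype difference, so they are a single check. The call was also lost without the intensity trend (limma, adjusted p = 0.249). Summed myeloid and memory-like CD8 marker signals were also higher on the Nrdp1-/- arrays, as given above, though not every marker was. Myeloid sums were 13464, 8674 and 3067 in untreated, 4 h and 8 h Nrdp1-/- cells and 2080, 1963 and 1898 in wild-type cells. The part of either marker group in the Socs3 difference was not tested.

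Cish had a larger but more uneven difference. Nrdp1-/- cells had 1.17 times the wild-type signal when untreated, 1.4 times at 4 h and 2.2 times at 8 h. The mean log2 difference of 0.61 ± 0.16 (95% interval 0.25 to 0.97) was not called (limma, adjusted p = 0.0594), with adjusted p-values between 1.76e-05 and 0.354 over 16 alternatives. It passed on the 4 stimulated arrays (0.81 ± 0.16, limma, adjusted p = 1.76e-05). That p-value leans on the spread over all genes, since the fit left few residual degrees of freedom. The single-array differences behind it were 0.48 at 4 h and 1.13 at 8 h. Without the 8 h array of either genotype the mean difference was 0.35, a single check since either omission takes out the 8 h pair. Socs1 differed by 0.19 ± 0.16 and Socs2 by 0.14 ± 0.33, and both were below wild type when untreated (-0.20 and -0.69) and above it at 4 h (0.68 and 0.59). Their adjusted p-values in limma were 0.625 and 0.903. The next brightest Socs2 probe set, which passed the filter, did not share this order. It differed by -0.03 untreated, -0.26 at 4 h and 0.15 at 8 h. On their brightest probe sets Socs4 to Socs7 had mean differences from -0.09 to 0.12. The widest of their 95% intervals, those of Socs5 and Socs6, reached 0.38 and 0.42. Dimmer probe sets that passed the filter gave -0.15 and -0.31 for Socs4 and 0.15 for Socs7, opposite in sign to the brightest Socs7 one. Those of Socs5 and Socs6 gave 0.07 and 0.12.

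A genotype-by-stimulation term compared the effect of genotype after stimulation with that before it. No member passed (0 of 8, and 0 at an unadjusted p under 0.05, limma), where 0.0923% of all genes were called higher and 0.129% lower. The estimate was 1.24 (95% interval -0.17 to 2.65) for Socs2, 0.59 (-0.01 to 1.19) for Cish and 0.59 (-0.03 to 1.21) for Socs1. For Socs3 it was 0.03 (-0.42 to 0.49). These values are from the brightest probe sets, and the next brightest Socs2 probe set, which passed the filter, gave -0.03. With 1 residual degree of freedom these intervals rest on the spread expected from signal level over all genes, and a difference inside them was not detectable with these arrays.

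**Figure D3:**
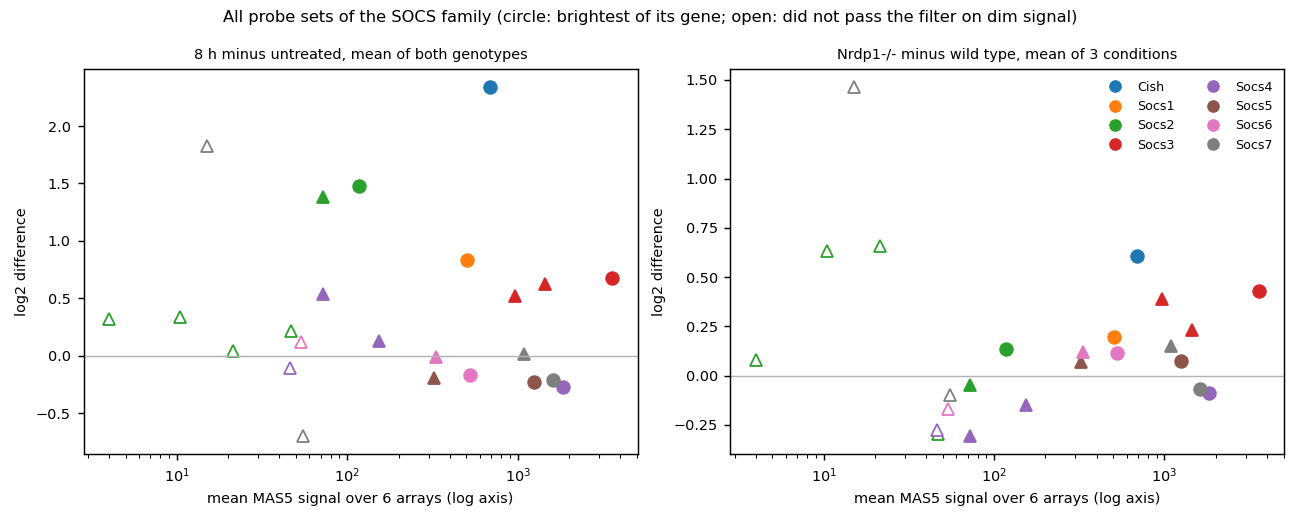
All 24 SOCS family probe sets by mean signal over 6 arrays (log axis) and log2 difference, at 8 h against untreated (left) and between Nrdp1-/- and wild type (right), with 1 colour per gene, circles for the brightest probe set of each gene, triangles for the others and open symbols for those that did not pass the filter. All 3 Socs3 probe sets lie above 0 in both panels, and an open Socs7 triangle at 1.83 (left) and 1.47 (right) is a dim probe set that did not pass.

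The other parts of the cytokine pathway were described with lists, whose counts are read against the shares of all tested genes given above for the same comparisons. On the ligand side 20 genes were listed, 18 were on the array and 9 were tested. Of these 9, 3 had risen at 4 h and 4 at 8 h, with 0 lower. Il2, Csf2 and Lif lay below the array median in untreated cells and passed the filter through stimulated arrays only. A fall could not have been seen for them, so these counts partly follow from the filter. Il2, whose product drives Cish through STAT5, had 28.0, 3289 and 1603 in untreated, 4 h and 8 h Nrdp1-/- cells and 18.0, 2632 and 1450 in wild-type cells, at least 42.4-fold higher at 4 h and 22.0-fold at 8 h. The highest Il2 signal was at 4 h and the highest Cish signal at 8 h in both genotypes. Ifng, a strong inducer of Socs1, had 80.4, 3786 and 6323 in Nrdp1-/- cells and 27.1, 1011 and 825 in wild-type cells. It was higher in Nrdp1-/- cells by 2.09 ± 0.22 (limma, adjusted p = 0.000179). Lif, a gp130 ligand, was at 4.60, 157 and 446 in Nrdp1-/- cells and at 54.7, 105 and 131 in wild-type cells. Its untreated signals lay below the array median in both genotypes, so it has only a bound there, at least 3.56-fold higher at 8 h.

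Receptor chains went both ways: of 17 tested, 3 had risen and 1 fallen at 4 h, and 4 had risen and 3 fallen at 8 h. Over all tested genes 8.01% had risen and 5.51% fallen at 4 h, and 9.88% and 9.26% at 8 h, so 1 of 17 lower at 4 h is near the background. The list medians were -0.02 at 4 h and -0.12 at 8 h. Il2ra, the inducible IL-2 receptor chain, had 59.4, 804 and 1702 in untreated, 4 h and 8 h Nrdp1-/- cells and 32.5, 545 and 916 in wild-type cells. Its untreated signals lay below the array median, so a fall could not have been seen for Il2ra, here or among the STAT5 targets. The shared IL-2 and IL-15 chain Il2rb had risen at 8 h by 0.38 ± 0.12 (limma, adjusted p = 0.0469). Il15ra had risen by 1.95 ± 0.20 and Il12rb1, a chain of the IL-12 receptor, by 1.34 ± 0.31 at 8 h. Both IL-6 receptor chains had fallen at 8 h, Il6ra by 0.74 and its partner Il6st, which encodes gp130, by 0.35. Il6ra was also the chain that had fallen at 4 h (-0.80 ± 0.11, limma, adjusted p = 0.000743). Ifngr1, the ligand-binding interferon-gamma receptor chain, fell by 0.30. Il2ra (0.75 ± 0.14), Il15ra (0.74 ± 0.16) and the IL-10 receptor gene Il10ra (1.10 ± 0.14) were the 3 chains higher in Nrdp1-/- cells.

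Jak2 had risen at 4 h (0.41 ± 0.11, limma, adjusted p = 0.0304) and Jak1 had fallen at 8 h (-0.42 ± 0.10, adjusted p = 0.0126), while Jak3 had changes of 0.63 ± 0.26 and 0.18 ± 0.26 that did not pass. The 2 STAT5 genes moved apart. Stat5a had 623, 1254 and 1785 in untreated, 4 h and 8 h Nrdp1-/- cells and 585, 1161 and 1237 in wild-type cells, a rise of 1.29 ± 0.14 at 8 h (adjusted p = 0.000115). Stat5b fell by 0.54 (SE 0.10, adjusted p = 0.0046) at 8 h. Stat3 had risen at both times (0.83 ± 0.15 and 0.61 ± 0.15) and Stat4 had fallen at 8 h (-0.36 ± 0.11). None of the 4 kinases and 6 STAT factors was called between genotypes (limma, 1 at an unadjusted p under 0.05).

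Most listed target genes of STAT5 had risen. Of 13 STAT5 targets 8 had risen at 4 h and 9 at 8 h, with Ccnd3 lower at 8 h. Pim1, a survival kinase, had 4455, 8117 and 7789 in untreated, 4 h and 8 h Nrdp1-/- cells and 4067, 6936 and 5735 in wild-type cells. Its change was 0.82 ± 0.11 at 4 h, and Pim2 changed by 2.29 ± 0.11 at 8 h. Of 7 STAT3 targets 5 had risen at 4 h and 3 (Bcl3, Fos and Junb) at 8 h. Between genotypes 4 STAT5 targets and 1 STAT3 target were higher in Nrdp1-/- cells. The median log2 change at 8 h was 1.00 for STAT5 targets and 0.55 for STAT3 targets. STAT5 targets such as Myc and Gzmb also respond to the T cell receptor. Whether the genes of either list rose through STAT5 or STAT3 was not tested.

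Of 14 other restraints 2 had risen and 1 fallen at both times, near the shares over all genes (8.01% and 5.51% at 4 h, 9.88% and 9.26% at 8 h), so the count is not a result about the list. Usp18, an inhibitor of interferon receptor signalling, had 657, 1952 and 1479 in untreated, 4 h and 8 h Nrdp1-/- cells and 576, 981 and 987 in wild-type cells. It had risen by 1.16 ± 0.17 at 4 h and was the restraint called higher in Nrdp1-/- cells (0.59 ± 0.14, limma, adjusted p = 0.0322). The phosphatase gene Ptpn6, which encodes SHP-1, had risen by 1.18 ± 0.13 at 4 h, and the STAT3 inhibitor Pias3 fell by 0.66. The 6 ligase partners of the SOCS box (Elob, Eloc, Cul2, Cul5, Rbx1, Rnf7) had 0 called in limma at any time or between genotypes, with median changes of 0.06 at 4 h and 0.08 at 8 h. Of 27 other SOCS box proteins 14 were tested, and of these Asb13 and Neurl2 had risen and Asb1 had fallen at 8 h, again near the 9.88% and 9.26% over all genes.

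**Figure D4:**
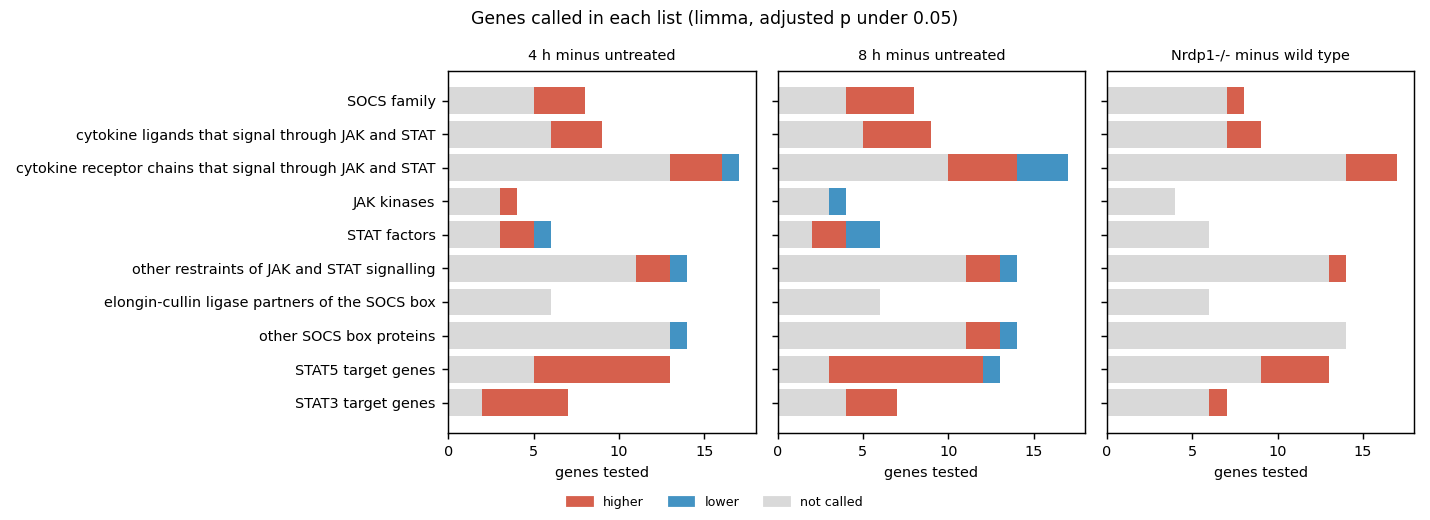
Number of tested genes (horizontal axis) in the SOCS family and in each pathway list described, split into higher, lower and not called in limma at an adjusted p under 0.05, at 4 h and at 8 h against untreated and for Nrdp1-/- against wild type. Of the 13 STAT5 targets 9 were higher at 8 h, and the 6 ligase partners have no called gene.

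The profiles most like those of the members over the 6 arrays were found by the root mean square difference of log2 signal after centring each gene on its own mean. For Cish these were Ppa1, Bysl and Dctd (0.20, 0.21 and 0.23, with Pearson r of 0.982, 0.981 and 0.976). For Socs1 they were Tapbpl, Psmb9 and Psmg4 (0.09, 0.11 and 0.11, r of 0.983, 0.969 and 0.965). Psmb9 encodes an immunoproteasome subunit. Socs3 was closest to 5033430I15Rik, Ampd2 and Klhdc4 (0.05, 0.08 and 0.09) and Socs2 to Wfdc15b, Kiss1r and Maoa (0.19, 0.22 and 0.25). The nearest genes of Socs4 were Ankrd44, Marchf7 and Pkd1, of Socs5 Armcx3, Fam174a and Mvk, of Socs6 Whamm, Mms22l and Tatdn3, and of Socs7 Atrx, Jmjd1c and Satb1, all at 0.06 or less. Among the members themselves, Cish and Socs3 had r = 0.932 over the 6 arrays and Cish and Socs4 had r = -0.930, which describes arrays that share the same time course.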

How the data were processed

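The authors deposited linear signal intensity per probe set, made with MAS5 per the submitters' processing notes, whose version is not given in the sources used here. The deposited values showed a mean without the lowest and highest 2% of 500.0 on all 6 arrays. The number of arrays limits the precision. Control probe sets (64 of 45101) were left out, 34945 probe sets had 1 symbol, 932 had several and 9160 were unnamed. Entrez identifiers matched RefSeq for 34741 and changed 0 symbols. Groups came from sample titles. Each gene's brightest probe set was tested as log2(signal + 4.45), after a filter at the array median on at least 2 arrays, with limma 3.58.1 in R 4.3.3 (time and genotype additive, eBayes with intensity trend, Benjamini-Hochberg over 10838 genes, threshold 0.05; 2 residual and 8.99 prior degrees of freedom). The interaction fit had 1 residual and infinite prior degrees of freedom, so its standard errors came from the spread over all genes alone. Folds "at least" take the array median as floor. The fit was tested on simulated data. Alternatives were normalization, pseudocount, filter, probe sets, trend, a 2-fold minimum and leaving out arrays. The members and lists were chosen with earlier results of these data known. Named were all members, the 3 nearest profiles of each, up to 4 called genes per list, and fixed pathway genes; 1 pathway list is not reported here.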

Additional observations from a re-analysis of the deposited data

How the results depend on the processing

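Counts of called members are from limma. At 4 h the 3 members called higher became 0 without the intensity trend and 1 with a 2-fold minimum, and 2 to 3 when leaving out each array in turn. At 8 h the 4 called higher became 0 without the trend and 2 with a 2-fold minimum, and 2 to 4 leaving out an array. Between 8 h and 4 h the 0 called became 1 on the stimulated arrays only and 0 to 1 leaving out an array. Between genotypes the 1 called higher (Socs3) became 2 (with Cish) after median centring and on the stimulated arrays only, 0 with the mean of probe sets, without the trend or with a 2-fold minimum, and 0 to 2 leaving out an array. Members called lower, and members called for the difference between stimulated and untreated cells, stayed at 0 under all alternatives run; leaving out an array was not possible for that difference, whose fit then has no residual degree of freedom. Of the members' values under the alternatives 506 kept direction and call, 30 lost a call, 10 gained one and 57 values that had not passed changed sign; no called value changed sign. Counts over all genes moved with the trend above all: 868 higher and 597 lower at 4 h became 83 and 4, 1071 and 1004 at 8 h became 103 and 5, and 268 and 279 between genotypes became 42 and 57. Lower calls ranged from 217 to 941 at 4 h and from 349 to 1537 at 8 h leaving out an array, and from 14 to 79 between 8 h and 4 h, where 3 were called in all arrays. Socs2 lay near the array median, and its 8 h call was also lost without the filter and without the trend. No paired analysis was possible because each genotype and time had 1 array and the labels give no replicate numbers.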
